A study of Mus musculus with 7 samples.

Results

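Regulators of pre-mRNA splicing were followed in the dorsal midbrain of *Brn3b* control and conditional knockout (cKO) mice. Members were the protein-coding genes with a GENCODE mouse symbol of *Srsf* and a digit, a symbol starting with *Hnrnp*, or one of *Clk1* to *Clk4*, *Tra2a*, *Tra2b*, *Ptbp1* to *Ptbp3*, *Nova1*, *Nova2*, *Rbfox1* to *Rbfox3*, *Srrm1*, *Srrm2*, *Srrm4* and *Son*. This symbol rule used no measured value, though it was chosen with earlier results of these data known. It gave 49 of the 52636 genes in the count files. They comprised 11 SR proteins, 20 hnRNPs, 4 CLK kinases, 2 TRA2 proteins, 3 PTB proteins, 3 SR-related proteins (*Son*, *Srrm1*, *Srrm2*) and 6 neuronal regulators (*Nova1*, *Nova2*, *Rbfox1* to *Rbfox3*, *Srrm4*). All 49 were among the 21817 genes that passed the filter on low counts, with 254 to 83862 counts per gene and library. A further 2 genes with an *Hnrnp* symbol were annotated as pseudogenes and were left out.

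The samples were dorsal midbrains of neonatal mice, with 1 polyA-selected, strand-specific paired-end RNA-seq library from each of 3 control and 4 cKO mice. Controls (labelled Heterozygote) carried *Brn3b* flox/+ with *En1-Cre*, and cKO mice (labelled Homozygote) carried *Brn3b* flox/- with *En1-Cre*, so that both groups had 1 conditional allele and the same Cre driver, active in the midbrain. Where Cre is active this allele becomes a null allele that carries an alkaline phosphatase reporter, so that controls also lost 1 working copy in those cells, whereas the null allele of the cKO mice was not limited to those cells. Controls A2 and A6 were P4 and A4 was P3; cKO mice B1 and B8 were P4 and B7 and B9 were P2, so that P2 mice occurred in the cKO group alone.

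SR proteins bind exonic RNA through an RNA recognition motif and, through a domain rich in arginine and serine, recruit the spliceosome to nearby splice sites. Many hnRNPs coat nascent RNA and often hold splice sites back, and CLK kinases phosphorylate SR proteins in the nucleus. In the brain, PTB proteins, NOVA, RBFOX and SRRM4 set the splicing of neuronal exons, and *Ptbp1* gives way to *Ptbp2* as progenitors become neurons.

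Promoters are shown for 4 members picked by their counts: *Srsf4* and *Srrm2* had the highest fold changes, and *Srsf3* and *Hnrnpa2b1* were the members with every cKO mouse below every control. No later result uses these sequences. Each sequence runs from 250 bases before to 50 bases after the RefSeq transcription start on GRCm38.p6, 5′ to 3′ on the strand of the gene, with matches to CCAAT (on the reverse strand ATTGG) or TATAAA in capitals. Their positions are chr4:131873387-131873686 (plus strand), chr17:23802937-23803236 (plus strand, a start inside the GENCODE gene), chr17:29032410-29032709 (plus strand) and chr6:51469845-51470144 (minus strand).
Srsf4: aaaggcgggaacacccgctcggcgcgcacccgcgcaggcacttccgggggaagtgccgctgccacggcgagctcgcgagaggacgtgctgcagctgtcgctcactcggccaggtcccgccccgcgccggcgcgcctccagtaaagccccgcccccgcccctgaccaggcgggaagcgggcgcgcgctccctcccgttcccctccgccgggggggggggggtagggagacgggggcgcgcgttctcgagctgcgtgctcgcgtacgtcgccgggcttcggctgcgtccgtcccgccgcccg
Srrm2: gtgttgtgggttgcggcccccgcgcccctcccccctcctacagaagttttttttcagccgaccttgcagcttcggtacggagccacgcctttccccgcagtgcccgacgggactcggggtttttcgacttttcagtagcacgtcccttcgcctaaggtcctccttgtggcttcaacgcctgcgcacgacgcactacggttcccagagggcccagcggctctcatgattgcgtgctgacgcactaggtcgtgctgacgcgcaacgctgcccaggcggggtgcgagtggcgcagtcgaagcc
Srsf3: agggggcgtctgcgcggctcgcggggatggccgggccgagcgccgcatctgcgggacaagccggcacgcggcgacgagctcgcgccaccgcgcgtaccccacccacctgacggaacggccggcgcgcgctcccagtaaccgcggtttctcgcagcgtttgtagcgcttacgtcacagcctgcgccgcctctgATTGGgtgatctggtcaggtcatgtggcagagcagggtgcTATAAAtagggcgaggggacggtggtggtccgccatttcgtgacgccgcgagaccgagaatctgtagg
Hnrnpa2b1: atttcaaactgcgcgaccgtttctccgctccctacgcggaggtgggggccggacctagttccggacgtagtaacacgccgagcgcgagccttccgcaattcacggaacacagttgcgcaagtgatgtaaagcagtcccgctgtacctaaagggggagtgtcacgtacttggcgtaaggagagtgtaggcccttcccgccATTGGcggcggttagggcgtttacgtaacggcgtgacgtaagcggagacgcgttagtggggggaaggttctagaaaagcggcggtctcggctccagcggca

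RefSeq promoters were found for 44 of the 49 members, and 22 of them (50%) held CCAAT on either strand, against 37.9% of 27025 promoters of all genes. TATAAA on either strand was present in 4 of 44 (9.09%), against 14.2%. ATTAAT, searched on either strand as a core of the sequence that POU4 factors bind, was in 0 of 44 and in 4.85% of all promoters. Members' promoters had a median GC content of 64.7%, and all promoters 52.7%. The *Srsf3* promoter held a reversed CCAAT starting 58 bases before the start site and TATAAA 18 bases before it, and the *Hnrnpa2b1* promoter a reversed CCAAT 51 bases before. Neither motif was found in the windows of *Srsf4* and *Srrm2*. No motif match is a measured binding site.

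The libraries held between 23588248 and 87572085 counts on genes. The P2 mice B7 and B9 were the deepest, at 67792192 and 87572085, and had the lowest shares of read pairs that name no gene (31.8% and 31.0%). The part of depth in the members' values was not tested. *Brn3b* (*Pou4f2*), the targeted gene, was counted at 46.5, 47.4 and 45.8 CPM in controls and 9.65, 9.67, 10.6 and 11.6 CPM in cKO mice, in the mouse order A2, A4, A6 and then B1, B7, B8, B9 that is used throughout, with a log2 fold change of -2.16 ± 0.13 (edgeR's quasi-likelihood test, adjusted p = 5.66e-04) and -2.18 without B8. B8 therefore matched its label. The leading principal component (60.1% of variance) placed B8 at -42.2 among the controls (-81.2 to -33.3) and the other cKO mice at 49.4 to 78.7. Mitochondrial genes took 4.59% to 4.77% of counts in controls, 4.61% in B8 and 4.01% to 4.30% in B1, B7 and B9. Read pairs that aligned to several places, which were counted apart from the genes, made up 10.6% to 11.1% of a library in controls, 10.9% in B8 and 8.14% to 9.76% in B1, B7 and B9. The part of either share in the members' values was not tested. Because B8 stood apart from its group, fold changes of cKO over control are given with all 7 mice and without B8 for the genes described. B8 was singled out by these same counts. All p values and counts of calls without it depend on that choice and are not independent tests. In tissue RNA, fewer cells of a type and less RNA per cell cannot be told apart.

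Across the 7 mice, none of the 49 splicing regulators passed an adjusted p of 0.05 in edgeR's quasi-likelihood test (background 0.00458% of genes called). An unadjusted p under 0.05 was reached by 13 of 49 (26.5%), against 30.4% of all genes, and the lowest adjusted p was 0.138. Log2 fold changes of cKO over control ran from -0.58 (*Rbfox3*) to 1.20 (*Srsf4*), with 36 above 0 and 13 below, where 50.2% of all genes were above 0. Their median was 0.17, against 0.00 over all genes. DESeq2 called 2 members higher in cKO mice, *Srsf4* and *Srrm2*, and 0 lower, where 10.4% of its genes were called (7.41% higher and 3.04% lower). The counts of calls in the members were thus at or below the background in both tests.

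The shift of the group lay in 3 of the 4 cKO mice. Medians over the 49 members of log2 CPM minus the control mean were 0.11, 0.23, -0.06 and 0.37 in B1, B7, B8 and B9, and -0.01, 0.02 and 0.01 in A2, A4 and A6. B8 was nearer to the mean of the controls than to that of B1, B7 and B9 for 44 of 49 members (89.8%, against 80% of all genes) and within the range of the controls for 27 of 49 (55.1%, against 61.8%). The spread of log2 CPM between mice had a median SD of 0.0755 in controls and 0.234 in cKO mice, and was larger among cKO mice for 47 of 49 members (95.9%). Over all genes tested these SDs were 0.191 and 0.356, and the spread was larger among cKO mice for 74.2% of them. The cKO mice were P2 and P4 and the controls P3 and P4, and the part of age in these spreads was not tested. B1, B7 and B9 all lay above the 3 controls for 26 members and all below for 6, together 32 of 49 (65.3%), against 28.2% and 28% and together 56.2% of all genes.

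**Figure D1:**
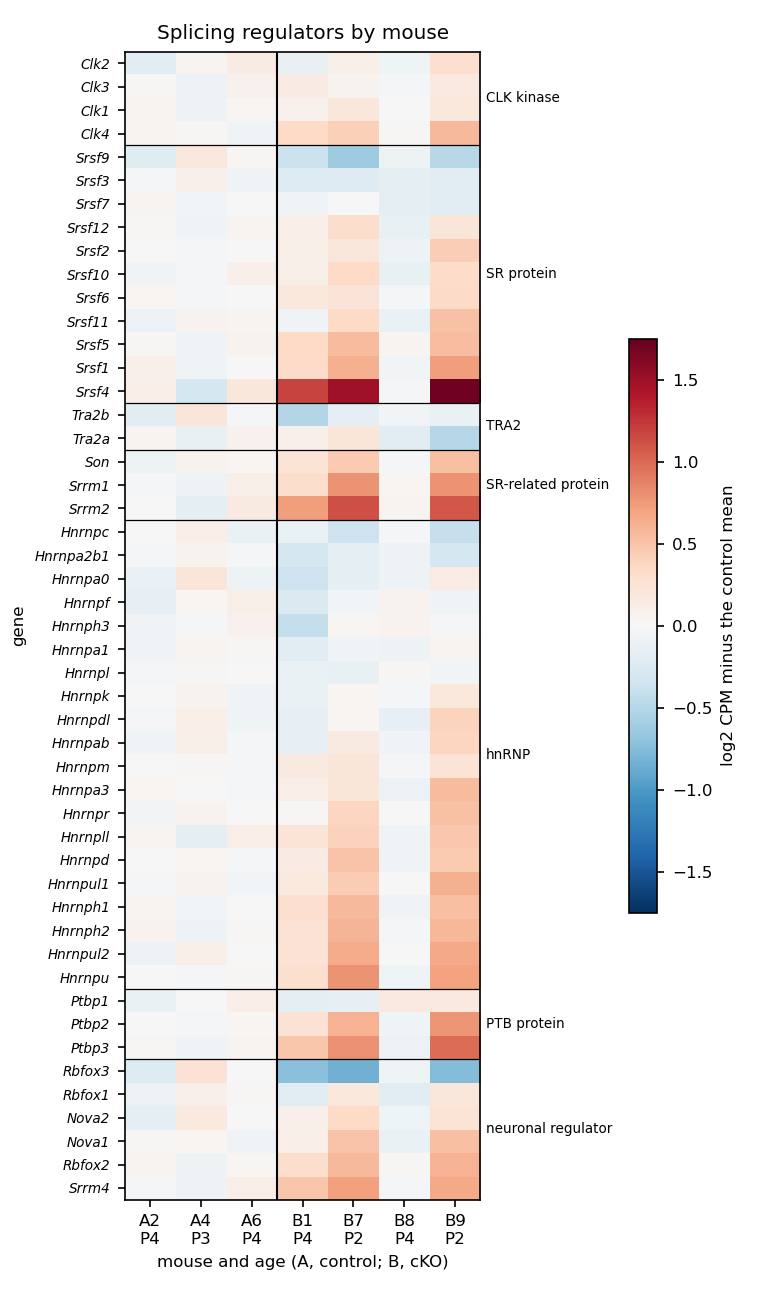
Log2 CPM of each of the 49 genes minus its mean in the controls, by mouse (columns, with age) and gene (rows, by family); red is above and blue below the control mean. The columns of B1, B7 and B9 are red for most genes, with medians of 0.11, 0.23 and 0.37, and that of B8 is close to the controls, with a median of -0.06.

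Without B8, edgeR called 23 of 49 members (46.9%), 19 higher and 4 lower, where 46.7% of all genes were called (23.7% higher and 23.1% lower). The share called was close to the background, and the split was uneven, with 38.8% of members called higher and 8.16% lower and a median log2 fold change of 0.24. The members called higher were *Srsf1*, *Srsf4*, *Srsf5*, *Srrm1*, *Srrm2*, *Son*, *Clk4*, *Ptbp2*, *Ptbp3*, *Nova1*, *Rbfox2*, *Srrm4* and the hnRNPs *Hnrnpu*, *Hnrnpul1*, *Hnrnpul2*, *Hnrnpd*, *Hnrnph1*, *Hnrnph2* and *Hnrnpll*. Those called lower were *Srsf9*, *Hnrnpc*, *Hnrnpa2b1* and *Rbfox3*. DESeq2 without B8, a fit added after the data were seen, called 21 (19 higher, 2 lower) against 39.9% of all genes (20.6% higher, 19.3% lower). limma-voom, whose sample quality weights gave B8 a weight of 0.167, called 24 of the members with 7 mice (21 higher, 3 lower) against 48.5% of all genes (24.2% higher, 24.3% lower).

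The same 3 cKO mice differed from the controls by gene length and GC content over the whole table. The 4355 genes with the longest exons had medians of 0.40, 0.53, 0.00 and 0.49 in B1, B7, B8 and B9 on the log2 scale, and the 4355 with the shortest -0.34, -0.47, -0.03 and -0.42. The 4355 genes lowest in GC content had medians of 0.32, 0.39, -0.04 and 0.30, and the 4355 highest -0.30, -0.54, -0.01 and -0.49. The members were long and low in GC, with medians of 6466 exon bases and 45.7% GC, against 3407 bases and 49.2% over all genes tested. After a smooth trend on both properties was removed from each library, the 7-mouse median of the members was -0.09, with 21 above 0 and 28 below, where 47.8% of all genes were above 0. Of them 0 were called by edgeR (background 0.00459%) and 13 had an unadjusted p under 0.05, against 25.8% of all genes.

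Corrected values below are those without B8, a fit added after the data were seen, unless 7 mice are named. Exon length and GC content were taken over all annotated transcripts, retained-intron ones included. Corrected values therefore depend on that annotation. Bases in retained-intron transcripts alone made up 69.6% of the exon length of *Tra2a*, 63.8% of *Clk1* and 63.0% of *Hnrnpa2b1*. With the correction and without B8, 19 of 49 members were called, 5 higher and 14 lower, against 34% of all genes (15% higher and 19% lower). The sign of the fold change was turned by the correction for 18 of 49 members (36.7%) and for 18% of all genes. Only 7 of 49 (14.3%, against 26.2% of all genes) were called in both fits in 1 direction: *Srsf4*, *Srsf5*, *Srrm2* and *Srrm4* higher, and *Hnrnpc*, *Hnrnpa2b1* and *Rbfox3* lower. *Son* and *Hnrnpll* were called in both, higher before and lower after the correction. Calls made before it alone numbered 14, and those made after it alone 10, of which 9 were lower and *Srsf2* was higher.

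**Figure D2:**
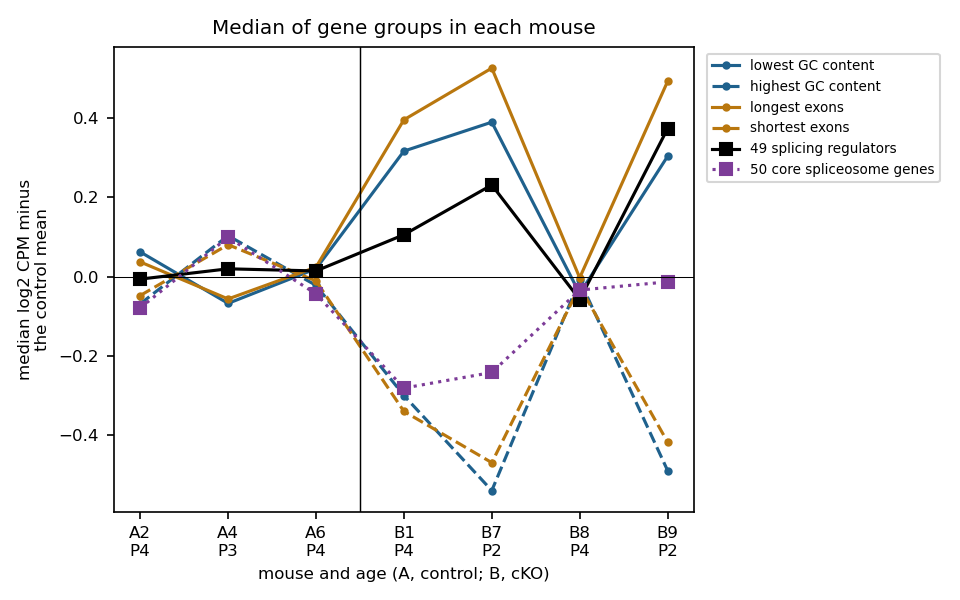
Median log2 CPM minus the control mean in each mouse for the 4355 genes at either end of GC content (blue) and of exon length (orange), for the 49 splicing regulators (black) and for 50 core spliceosome genes (purple). In B1, B7 and B9 the members run with the long and low-GC genes, at 0.11 to 0.37, and in B8 all 6 lines lie close to 0.

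**Figure D3:**
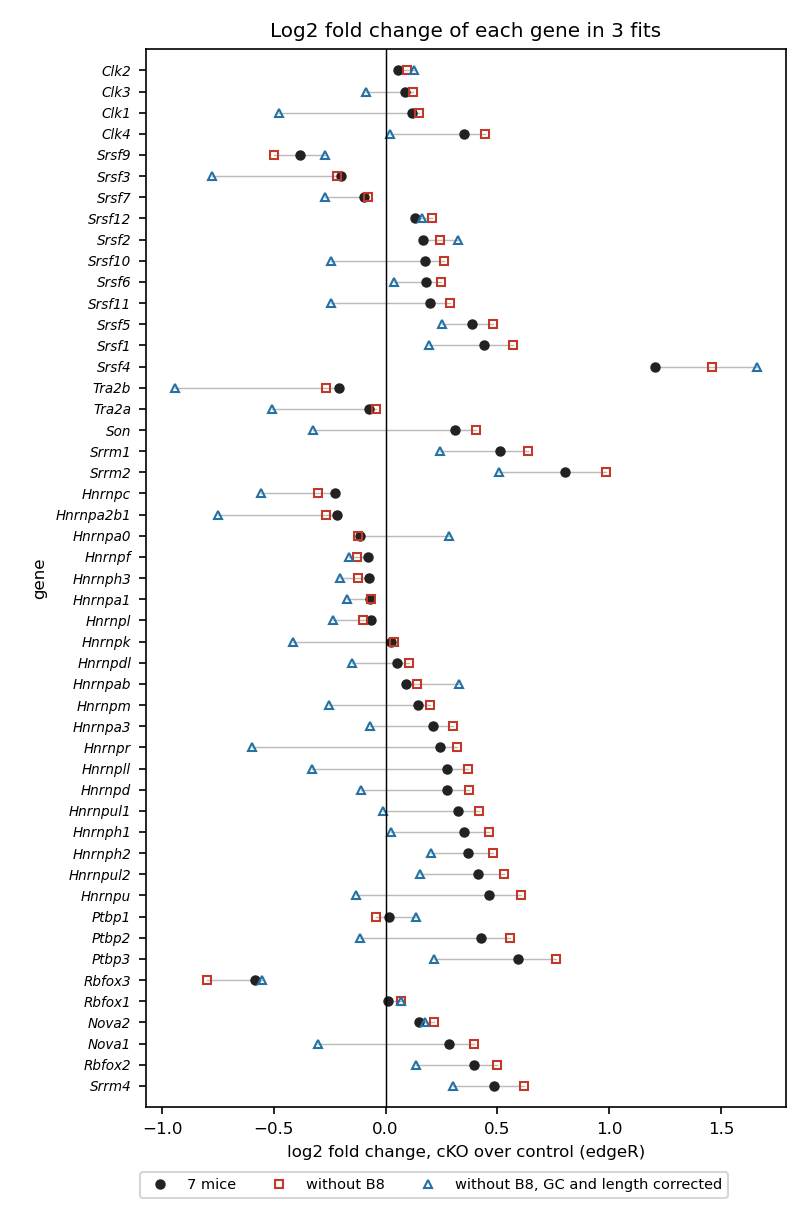
Log2 fold change of cKO over control for each gene from edgeR with 7 mice (black), without B8 (red) and without B8 after the GC and length correction (blue). The correction carries 18 of 49 genes across 0, while *Srsf4* stays at 1.20 to 1.66 and *Rbfox3* at -0.80 to -0.55.

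The 11 SR proteins had a median log2 fold change of 0.17 with 7 mice (8 above 0, 3 below), which was 0.023 with the correction and 7 mice (6 above 0, 5 below). Per-mouse medians before it were 0.11, 0.31, -0.09 and 0.33 in the 4 cKO mice. *Srsf4* (chr4:131873617-131901706, plus strand), whose promoter is printed above, was the lowest of them per kilobase of exon in controls, at 2.77 CPM per kb, beside 47.4 for *Srsf6*, the highest. It was counted at 10.5, 7.84 and 11.2 CPM in controls and 22.0, 27.2, 9.53 and 31.8 CPM in cKO mice. B1, B7 and B9 lay above all controls and B8 lay between A4 and A2. The log2 fold change was 1.20 ± 0.36 with 7 mice (SE, adjusted p = 0.138 in edgeR, 0.0229 in DESeq2) and 1.46 ± 0.18 without B8 (edgeR, adjusted p = 1.01e-04, range over all alternatives 1.78e-13 to 0.989). With the correction and without B8 it was 1.66. An antisense gene, *Gm12992*, overlaps 1532 bases of its exons, and reads of the pair cannot be told apart here because the strand setting of the counting is not given in the sources used. The same limit holds for other members with antisense overlaps, among them *Nova2* (2652 bases), *Clk3* (1284), *Ptbp1* (983) and *Hnrnpu* (804). *Hnrnpm* shares 1169 bases with a gene on its own strand.

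*Srsf1* and *Srsf5*, broadly acting SR proteins, were next in rank before the correction. *Srsf1* was at 241, 217 and 226 CPM in controls and 289, 351, 220.3 and 378 CPM in cKO mice, a log2 fold change of 0.44 ± 0.18 with 7 mice (edgeR, adjusted p = 0.149) and 0.57 ± 0.12 without B8 (adjusted p = 0.00177, range 6.43e-05 to 0.989). *Srsf5* was at 125, 116 and 129 CPM in controls and 158, 181, 127 and 178 CPM in cKO mice, a log2 fold change of 0.38 ± 0.15 (edgeR, adjusted p = 0.140) and 0.48 ± 0.10 without B8 (adjusted p = 0.00257, range 1.97e-04 to 0.989). For both genes B1, B7 and B9 lay above all controls and B8 lay among them. The correction kept the call of *Srsf5* without B8, at 0.25, and not that of *Srsf1*, at 0.20 (edgeR, adjusted p = 0.111).

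*Srsf3*, the smallest SR protein, which also takes part in mRNA export, was one of 2 members (4.08%) with all 4 cKO mice below all 3 controls, and 0 members had all 4 above (background 8.01% below, 6.03% above, 14% in either direction). It was counted at 196, 214 and 193 CPM in controls and 170.4, 171, 181 and 177 CPM in cKO mice. B8, the highest of the cKO mice, was also below the controls here, and the two-sided exact permutation p over 35 splits of the mice was 0.0571, the smallest that 3 against 4 mice allow. The log2 fold change was -0.20 ± 0.11 (edgeR, adjusted p = 0.231) and -0.22 ± 0.10 without B8 (adjusted p = 0.0823), and -0.78 with the correction and without B8 (adjusted p = 3.00e-04, range 3.00e-04 to 0.989). Of its annotated exon bases, 59.2% belong to retained-intron transcripts alone, and 2 pseudogenes carry near-identical sequence, so its level depends on how shared reads were counted.

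*Srsf9* was the SR protein with the lowest fold change before the correction. It was at 36.3, 47.9 and 42.9 CPM in controls and 32.6, 27.5, 39.8 and 30.2 CPM in cKO mice. Its log2 fold change was -0.38 ± 0.17 with 7 mice (edgeR, adjusted p = 0.156) and -0.50 ± 0.13 without B8 (adjusted p = 0.00783, range 0.00283 to 0.989), and -0.27 with the correction, where it was not called. *Srsf7* had -0.098 with 7 mice and -0.079 without B8, and was called lower with the correction, at -0.27 (edgeR, adjusted p = 0.0280). The other 5 SR proteins, *Srsf2*, *Srsf6*, *Srsf10*, *Srsf11* and *Srsf12*, had log2 fold changes of 0.13 to 0.20 with 7 mice and 0.21 to 0.29 without B8, where none was called. With the correction *Srsf2* was called higher, at 0.32 (edgeR, adjusted p = 0.0234).

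**Figure D4:**
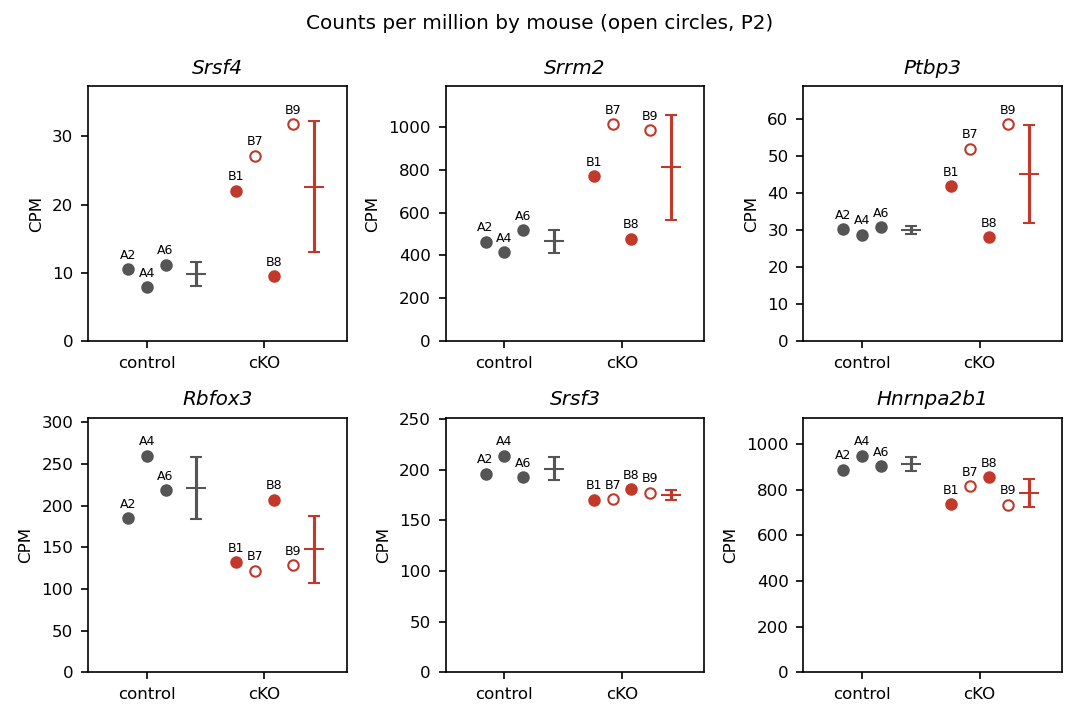
CPM of 6 members in each mouse (grey, control; red, cKO; open circles, P2), with the mean and SD beside each group. In *Srsf4*, *Srrm2*, *Ptbp3* and *Rbfox3* B8 sits near or within the range of the controls and the other cKO mice apart from it, and in *Srsf3* and *Hnrnpa2b1* all 4 cKO mice lie below the 3 controls.

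The 3 SR-related proteins, large scaffolds that bridge SR proteins at nuclear speckles, all had fold changes above 0. *Srrm2* (chr17:23790532-23824741) was at 464, 415 and 519 CPM in controls and 771, 1015, 479 and 986 CPM in cKO mice, 1.74 times the control mean over 4 cKO mice and 1.98 times without B8. B8 lay among the controls and the other cKO mice did not overlap them. Its log2 fold change was 0.80 ± 0.24 with 7 mice (adjusted p = 0.138 in edgeR, 0.0359 in DESeq2), 0.98 ± 0.13 without B8 (edgeR, adjusted p = 1.30e-04, range 3.91e-11 to 0.989) and 0.51 with the correction and without B8 (adjusted p = 0.00266). *Srrm1* was at 143, 136 and 155 CPM in controls and 179, 249, 148 and 248 CPM in cKO mice, and its log2 fold change of 0.51 ± 0.19 (edgeR, adjusted p = 0.140) was 0.64 ± 0.13 without B8 (adjusted p = 0.00203) and 0.24 with the correction (adjusted p = 0.0888, range 5.87e-05 to 0.989).

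*Son* was at 445, 491 and 482 CPM in controls and 555, 647, 464 and 679 CPM in cKO mice, with a log2 fold change of 0.31 ± 0.15 with 7 mice (edgeR, adjusted p = 0.184). Without B8 it was called higher at 0.41 ± 0.11 (edgeR, adjusted p = 0.00830) and, with the correction, lower at -0.32 (adjusted p = 0.0171, range 0.00109 to 0.989), so that no direction is given for it. The ratio per kilobase of *Srrm2* to *Srrm1* was 1.85, 1.74 and 1.90 in controls and 2.45, 2.32, 1.84 and 2.26 in cKO mice, with a two-sided exact permutation p of 0.171.

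TRA2 proteins, activators related to SR proteins, had fold changes below 0. *Tra2b* was at 82.6, 109 and 91.5 CPM in controls and 65.5, 83.9, 90.4 and 86.5 CPM in cKO mice, with a log2 fold change of -0.21 ± 0.16 (edgeR, adjusted p = 0.363), and B8 and A6 were nearly equal. *Tra2a* was at 132, 117 and 135 CPM in controls and 136, 148, 113 and 90.5 CPM in cKO mice, with B9 the lowest and B7 the highest of all mice, and a log2 fold change of -0.074 ± 0.18 (adjusted p = 0.789). Without B8 they were at -0.26 and -0.041 and neither was called (edgeR, adjusted p = 0.133 and 0.856), and both were called lower after the correction was added (-0.94 and -0.51). Retained-intron transcripts alone cover 52.3% of the exon bases of *Tra2b* and 69.6% of those of *Tra2a*, and 4 pseudogenes resemble *Tra2b*. These bases are part of the exon length that the correction used.

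No CLK kinase was called with 7 mice. *Clk1* was at 134, 122 and 133 CPM in controls and 137, 148, 129.6 and 148 CPM in cKO mice, with a log2 fold change of 0.12 ± 0.12, and *Clk2* and *Clk3* had 0.055 ± 0.15 and 0.088 ± 0.12 (edgeR, adjusted p = 0.501, 0.821 and 0.633). Without B8 these 3 had log2 fold changes of 0.15, 0.094 and 0.12 and none was called (edgeR, adjusted p = 0.235 to 0.595), whereas with the correction *Clk1* was called lower at -0.48 (adjusted p = 0.00152). *Clk4* was at 53.3, 52.4 and 48.9 CPM in controls and 65.2, 69.0, 52.1 and 76.3 CPM in cKO mice, with B1, B7 and B9 above all controls and B8 among them. Its log2 fold change of 0.35 ± 0.15 (adjusted p = 0.156) was 0.44 ± 0.11 without B8 (edgeR, adjusted p = 0.00502, range 0.00128 to 0.989) and 0.021 with the correction. Per kilobase, the ratio of *Clk4* to *Clk1* was 0.558, 0.602 and 0.515 in controls and 0.668, 0.654, 0.563 and 0.724 in cKO mice (two-sided exact permutation p = 0.114). Of the exon bases of the 4 genes, 54.8% to 63.8% are annotated in retained-intron transcripts alone, and counts per gene do not separate these from spliced CLK transcripts.

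The 20 hnRNPs had a median log2 fold change of 0.12 with 7 mice (13 above 0, 7 below), which the correction turned to -0.12 with 7 mice (5 above 0, 15 below). Without B8 edgeR called 7 higher and 2 lower (35% and 10%, against 23.7% and 23.1% of all genes), and with the correction 0 higher and 7 lower (0% and 35%, against 15% and 19%), so that no direction is given for the family. Medians before the correction were -0.05, 0.18, -0.05 and 0.38 in B1, B7, B8 and B9. The 3 highest before the correction were *Hnrnpu*, a nuclear scaffold protein that binds chromatin and RNA, its relative *Hnrnpul2*, and *Hnrnph2*, a binder of G-rich RNA. *Hnrnpu* was at 471, 467 and 482 CPM in controls and 577, 817, 450.1 and 769.9 CPM in cKO mice, a log2 fold change of 0.46 ± 0.20 (edgeR, adjusted p = 0.154) and 0.60 ± 0.13 without B8 (adjusted p = 0.00214, range 6.15e-05 to 0.989). *Hnrnpul2* was at 226, 259.5 and 242 CPM in controls and 288, 381, 243 and 383 CPM in cKO mice and *Hnrnph2* at 57.4, 51.6 and 55.7 CPM in controls and 65.6, 82.5, 53.7 and 81.8 CPM in cKO mice, and their log2 fold changes were 0.42 and 0.37 with 7 mice and 0.53 and 0.48 without B8. In all 3 genes B1, B7 and B9 lay above the controls, and B8 lay within their range or, for *Hnrnpu*, below it. None of the 3 was called after the correction, where *Hnrnpu* was at -0.13.

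*Hnrnpa2b1*, a splicing repressor and RNA transport factor, was the hnRNP with the highest level per kilobase (139 CPM per kb in controls) and the other member with all 4 cKO mice below all controls. It was counted at 889, 949 and 905 CPM in controls and 737, 816, 856 and 736 CPM in cKO mice, with a two-sided exact permutation p of 0.0571. Its log2 fold change was -0.22 ± 0.11 (edgeR, adjusted p = 0.208), -0.26 ± 0.10 without B8 (adjusted p = 0.0415) and -0.75 with the correction and without B8 (adjusted p = 2.54e-04, range 2.54e-04 to 0.989). *Hnrnpc*, which binds uridine tracts, was at 135, 147 and 125 CPM in controls and 124, 105, 132 and 102 CPM in cKO mice, and B8 lay among the controls. Its log2 fold change was -0.23 ± 0.14 (edgeR, adjusted p = 0.270), -0.30 ± 0.11 without B8 (adjusted p = 0.0472) and -0.56 with the correction (adjusted p = 0.00405, range 0.00405 to 0.997). DESeq2 without B8 called neither *Hnrnpa2b1* nor *Hnrnpc* (adjusted p = 0.0510 and 0.0532).

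*Hnrnpa0* was at 300.3, 377 and 307 CPM in controls and 255, 291, 306 and 358 CPM in cKO mice, a log2 fold change of -0.12 ± 0.15 with 7 mice and -0.12 without B8, which the correction turned to 0.19 and 0.29, with no call in any of these fits. The other 14 hnRNPs had log2 fold changes from -0.08 to 0.35 with 7 mice and from -0.13 to 0.46 without B8. Of these *Hnrnpk*, *Hnrnpl*, *Hnrnpm*, *Hnrnpr* and *Hnrnpll* were called lower with the correction and without B8, at -0.41, -0.24, -0.25, -0.60 and -0.33. Among the 14 were *Hnrnpa1*, with 9 near-identical pseudogenes, *Hnrnpa3*, with 25, and *Hnrnpf*, with 6, whose levels are uncertain because reads can be split between copies or left out as aligned to several places.

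Of the PTB proteins, *Ptbp1*, the form of progenitors and glia, was at 35.1, 38.3 and 41.2 CPM in controls and 34.2, 34.4, 43.1 and 42.8 CPM in cKO mice, with both groups overlapping and a log2 fold change of 0.017 ± 0.14 (edgeR, adjusted p = 0.946), or -0.042 without B8. *Ptbp2*, the neuronal form, was at 211, 207 and 217 CPM in controls and 252, 324, 201 and 362 CPM in cKO mice, a log2 fold change of 0.43 ± 0.19 (edgeR, adjusted p = 0.168) and 0.56 ± 0.13 without B8 (adjusted p = 0.00361, range 1.65e-04 to 0.989). *Ptbp3* was at 30.1, 28.7 and 30.7 CPM in controls and 41.7, 51.8, 27.9 and 58.5 CPM in cKO mice, a log2 fold change of 0.59 ± 0.23 (adjusted p = 0.140) and 0.76 ± 0.13 without B8 (edgeR, adjusted p = 6.44e-04, range 2.20e-06 to 0.989). B8 had the lowest value of all 7 mice in both *Ptbp2* and *Ptbp3*, and B1, B7 and B9 lay above the controls. After the correction neither was called without B8, at -0.12 and 0.22. Per kilobase, the ratio of *Ptbp2* to *Ptbp1* was 3.11, 2.79 and 2.73 in controls and 3.80, 4.86, 2.41 and 4.37 in cKO mice, with a two-sided exact permutation p of 0.229.

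Among the neuronal regulators, *Rbfox3*, whose protein is the NeuN antigen of maturing neurons, had the lowest fold change of all members before the correction. It was counted at 185, 260.0 and 218 CPM in controls and 132, 122, 207 and 129 CPM in cKO mice. B1, B7 and B9 lay close together below all controls, and B8 between A2 and A6. The log2 fold change was -0.58 ± 0.21 (edgeR, adjusted p = 0.138), -0.80 ± 0.13 without B8 (adjusted p = 3.49e-04) and -0.55 ± 0.09 with the correction and without B8 (adjusted p = 0.00130, range 1.52e-07 to 0.989). *Rbfox2* was at 413, 375 and 406 CPM in controls and 492, 589.6, 404 and 606 CPM in cKO mice, a log2 fold change of 0.39 ± 0.16 (edgeR, adjusted p = 0.143) and 0.50 ± 0.11 without B8 (adjusted p = 0.00278, range 2.20e-04 to 0.989). The correction left it at 0.14, not called. *Rbfox1* was at 319, 363 and 348 CPM in controls and 303, 389, 299 and 393 CPM in cKO mice, with overlapping groups and a log2 fold change of 0.0093 ± 0.14 with 7 mice and 0.070 without B8, not called in either.

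Set against each other per kilobase, *Rbfox2* to *Rbfox3* gave 1.59, 1.03 and 1.33 in controls and 2.67, 3.46, 1.39 and 3.36 in cKO mice, with a two-sided exact permutation p of 0.114, and *Rbfox1* to *Rbfox3* 2.28, 1.85 and 2.11 in controls and 3.03, 4.22, 1.91 and 4.03 in cKO mice (0.171, exact permutation). B8 lay within the range of the controls for both. These were 2 of 7 ratios compared, and no p can pass 0.05 with 3 against 4 mice.

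*Srrm4*, the activator of neuronal microexons, was at 65.8, 62.9 and 72.2 CPM in controls and 93.8, 109.6, 65.9 and 105 CPM in cKO mice. Its log2 fold change was 0.49 ± 0.18 (edgeR, adjusted p = 0.139), 0.62 ± 0.11 without B8 (adjusted p = 7.32e-04) and 0.30 with the correction and without B8 (adjusted p = 0.0247, range 4.11e-06 to 0.989). B8 stood among the controls and the other cKO mice above them. *Nova1* was at 479, 483 and 453 CPM in controls and 513, 669, 436 and 681 CPM in cKO mice and *Nova2* at 118, 149 and 134 CPM in controls and 141, 169, 126 and 157 CPM in cKO mice, with log2 fold changes of 0.29 ± 0.17 and 0.15 ± 0.15 (edgeR, adjusted p = 0.261 and 0.484). Without B8 *Nova2* was at 0.22 and not called (edgeR, adjusted p = 0.149), and *Nova1* was called at 0.39. With the correction *Nova1* was at -0.30 and was not called. Their ratio per kilobase was 3.90, 3.10 and 3.23 in controls and 3.49, 3.79, 3.30 and 4.15 in cKO mice (two-sided exact permutation p = 0.400).

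Age was set apart as far as the mice allow. Against the 2 P2 cKO mice, 29 of 49 members were called in edgeR (25 higher, 4 lower), where 46.9% of all genes were called (22.9% higher, 24% lower). Against the 2 P4 cKO mice, which include B8, 0 were called and 0 had an unadjusted p under 0.05 (background 0.00476% and 3.69%), and the median log2 fold change was 0.01. With age as a covariate edgeR called 0 (background 0.00458%), 3 had an unadjusted p under 0.05 (18.2% of all genes) and the median was 0.08. *Srsf4* had log2 fold changes of 1.57 and 0.68 against the P2 and P4 mice, *Srrm2* 1.08 and 0.42, and *Rbfox3* -0.84 and -0.37. B1, at P4, had *Srsf4* at 22.0 and *Rbfox3* at 132 CPM, on the side of B7 and B9. This did not hold for all members: the median over the hnRNPs was -0.05 in B1 and in B8, beside 0.18 in B7 and 0.38 in B9. No control was P2, and the P2 age and the genotype of B7 and B9 cannot be told apart.

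Cell type markers were measured beside these results. Of 11 neuronal markers, which include *Rbfox3* itself, edgeR without B8 called 4 higher and 3 lower (background 23.7% higher and 23.1% lower), and their summed level was 6636 to 7429.9 CPM in controls and 6785 to 7627 CPM in cKO mice. The 8 astrocyte markers summed to 971 to 1021 CPM in controls, 1039 in B8 and 1138 to 1248 in B1, B7 and B9. The genes of this list did not share a direction: without B8 their median log2 fold change was 0.001, with *Slc1a2* (0.93), *Slc1a3* (0.31) and *Aqp4* (0.56) called higher and *Aldoc* (-0.84) and *S100b* (-1.47) lower in edgeR. The 8 microglia markers summed to 142 to 219 CPM in controls, 157 in B8 and 92.4 to 121 in B1, B7 and B9. Without B8 edgeR called 5 of them lower and 0 higher, with a median log2 fold change of -1.24, from *C1qb* at -1.55 to *P2ry12* at 0.42. No marker of these lists was at 0 in any library, and with 7 mice edgeR called 0 of them, 5 neuronal, 3 astrocyte and 4 microglia markers had an unadjusted p under 0.05 (background 30.4%), and DESeq2 called 2 neuronal, 1 astrocyte and 2 microglia markers (background 10.4%). Their part in the members' values was not tested.

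The core spliceosome, the machinery that SR proteins and hnRNPs steer, had a median below 0. Of 50 snRNP and spliceosome genes, 0 were called by edgeR with 7 mice (background 0.00458%), and 20 (40%, against 30.4% of all genes) had an unadjusted p under 0.05. DESeq2 called 4 (8%, 2 higher and 2 lower), against 10.4% of all genes. edgeR without B8 called 28 (56%), 11 higher and 17 lower (22% and 34%), against 46.7% of all genes (23.7% and 23.1%). The median log2 fold change was -0.15 with 7 mice and -0.20 without B8, and -0.17 and -0.18 with the correction, where 5 were called higher and 18 lower without B8 (10% and 36%, against 15% and 19% of all genes). Per-mouse medians were -0.080, 0.099 and -0.044 in A2, A4 and A6 and -0.28, -0.24, -0.03 and -0.01 in B1, B7, B8 and B9, so that B1 and B7 lay below the controls and B8 and B9 among them. The genes had a median exon length of 4040.5 bases and 49.9% GC. *Snrpd2*, a Sm protein, was at 46.0, 64.5 and 52.7 CPM in controls and 25.1, 17.6, 48.1 and 22.0 CPM in cKO mice (-0.95 ± 0.31), and *Sf3b5*, a small subunit of SF3B, at 28.0, 37.5 and 29.4 CPM in controls and 17.9, 10.2, 29.8 and 10.2 CPM in cKO mice (-0.90 ± 0.35). The highest were *Sf3b1*, the large SF3B subunit, at 218, 199.8 and 207 CPM in controls and 318, 432, 202 and 494 CPM in cKO mice (0.79 ± 0.26), and *Prpf8*, the core of the catalytic centre, at 153, 150.1 and 168 CPM in controls and 250.1, 323, 162 and 352 CPM in cKO mice (0.79 ± 0.24). Without B8 these 4 had log2 fold changes of -1.34, -1.33, 0.99 and 0.97, all called in edgeR (adjusted p = 9.36e-05 to 4.04e-04). With the correction and without B8 they had log2 fold changes of -1.22, -1.48, 0.23 and 0.68.

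Among 63 other splicing regulators tested of 64 found, edgeR called 0 with 7 mice (background 0.00458%), 18 (28.6%, against 30.4% of all genes) had an unadjusted p under 0.05, and DESeq2 called 0 (background 10.4%). edgeR without B8 called 31 (49.2%, against 46.7%), 23 higher and 8 lower (36.5% and 12.7%, against 23.7% and 23.1%). Their median log2 fold change was 0.16 with 7 mice and 0.21 without B8. The correction turned these medians to -0.11 and -0.15, and without B8 the calls to 6 higher and 22 lower (9.52% and 34.9%, against 15% and 19% of all genes). The lowest were *Pcbp4*, at 303, 413 and 337 CPM in controls and 204, 156, 336 and 177 CPM in cKO mice (-0.68 ± 0.25), and *Elavl3*, a neuronal RNA-binding protein, at 1161, 1530.3 and 1311 CPM in controls and 746, 819, 1229 and 849.6 CPM in cKO mice (-0.55 ± 0.18). The highest were *Rbm5*, at 185, 176 and 187 CPM in controls and 282, 352, 180.0 and 356 CPM in cKO mice (0.68 ± 0.22), and *Luc7l2*, a U1-associated factor, at 127, 105 and 123 CPM in controls and 177, 226, 118 and 228 CPM in cKO mice (0.67 ± 0.22). Without B8 *Pcbp4*, *Elavl3*, *Rbm5* and *Luc7l2* had log2 fold changes of -0.97, -0.73, 0.85 and 0.83, all called in edgeR (adjusted p = 1.38e-04 to 4.07e-04). The correction left *Rbm5* and *Luc7l2* at 0.087 and 0.090 without B8, and *Pcbp4* and *Elavl3* at -0.52 and -0.79.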

How the data were processed

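RNA-seq of the dorsal midbrain was made by the authors for 3 control and 4 cKO mice. Per the submitters' processing notes and the methods, reads were trimmed and aligned to GRCm38.p5 with TopHat2 and Bowtie2, and HTSeq gave counts of reads for the genes of GENCODE vM15. The strand and overlap options of the counting are not given in the sources used here. The deposited values are raw counts for 52636 genes per mouse. Entries that name no gene (30.98% to 38.18% of read pairs per library) were left out. Symbols, biotypes, exon lengths and GC content came from GENCODE vM21 on the same build (52489 identifiers matched, 147 did not).

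Tests were run in R 4.3.3, with edgeR 4.0.16 (filterByExpr with a minimum count of 10 and a minimum total of 15, TMM, glmQLFit, glmQLFTest) over all 21817 genes tested, with genotype as the single term. A call is a Benjamini-Hochberg adjusted p below 0.05. CPM use TMM library sizes, and log2 CPM for medians and principal components add a prior count of 2. Single genes and ratios were compared with an exact permutation test over 35 splits of the mice, of which the smallest two-sided p is 0.0571. Alternatives were DESeq2 1.42.0, upper-quartile or RLE factors, limma-voom (limma 3.58.1) with a quality weight per sample, 2 other count filters, age as a covariate, subsets by age, a GC and length correction (smooth trends from mgcv 1.9.3, used as offsets) and leaving out each mouse. The tests were checked on simulated counts. Near-identical copies share at least 95% identity over 200 bases. Promoters came from RefSeq tables on GRCm38.p6.

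Genes named in the text are the CLK, PTB, TRA2, SR-related and neuronal members, the 3 highest and 3 lowest SR proteins and hnRNPs by log2 fold change at a mean of at least 1 CPM, and the 2 highest and 2 lowest of each comparison list. Others were named where a count singled them out. Members and lists were chosen with earlier results of these data known. Markers covered 10 groups: neurons, dividing cells and progenitors, astrocytes, the oligodendrocyte lineage, microglia, endothelium, red blood cells, dorsal midbrain, cortex and hippocampus, and cerebellum. The labels name no litter or batch.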

Additional observations from a re-analysis of the deposited data

Results flagged for a closer look

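*Rbfox3* in the cKO mouse B8 stood far from the other cKO mice. Its value of 207 CPM, beside 132, 122 and 129 CPM in B1, B7 and B9, left a gap of 0.849 of the range of the group on the log2 CPM scale, above the critical value for 4 samples in Dixon's test. This was 1 of 46 results examined in this way, which is no more than the rate of about 1 in 20 that chance alone gives. B8 was also nearer the mean of the controls than that of B1, B7 and B9 for 80% of all genes. The controls were at 185, 260.0 and 218 CPM.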

How the results depend on the processing

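Each result compared in this way was the fold change of a gene chosen by the naming rule given above. Direction and side of the threshold were kept in 601 of the comparisons of a result with an alternative, 126 passed the threshold under the alternative alone, and 33 turned direction. For the members, against 0 calls with 7 mice, DESeq2 called 2, limma-voom with sample quality weights 24, and the controls against the P2 cKO mice 29. Leaving out each mouse in turn gave 0 to 23 calls, the highest without B8, and among alternatives chosen after seeing the data DESeq2 without B8 gave 21 and the GC and length correction without B8 gave 19. For all genes, against 1 call, these counts were 1994, 10583, 10425, 1 to 9867, 9951 and 7159, and P4 mice alone gave 0. For the core spliceosome, against 0 calls, they were 4, 28, 30, 0 to 28, 28 and 23, and for the other splicing regulators, with 0 in DESeq2, 33, 38, 0 to 31, 33 and 28. The median log2 fold change of the members moved from 0.17 to -0.093 with the correction and to -0.11 with the correction and without B8. Members outside the naming rule that turned with the correction, such as *Hnrnpk*, *Hnrnpr* and *Hnrnpll*, are left out here. For the genes chosen by the rule, direction turned as follows on the log2 scale. With the correction it was -0.34 for *Clk1*, -0.076 for *Clk3*, -0.25 for *Nova1*, -0.10 for *Ptbp2*, -0.24 for *Son*, 0.19 for *Hnrnpa0* and -0.11 for *Hnrnpu*. With the correction and without B8 it was -0.48 for *Clk1*, -0.087 for *Clk3*, -0.30 for *Nova1*, -0.12 for *Ptbp2*, -0.32 for *Son*, 0.29 for *Hnrnpa0* and -0.13 for *Hnrnpu*. With age as a covariate it was -0.047 for *Clk2* and -0.12 for *Rbfox1*, against the P4 cKO mice -0.10 for *Clk2* and -0.19 for *Rbfox1*, and with P4 mice alone -6.94e-04 for *Clk1*, -0.084 for *Clk2* and -0.15 for *Rbfox1*. It was -0.062 for *Ptbp1* with limma-voom, -2.41e-03 for *Ptbp1* against the P2 cKO mice, and -0.032 for *Ptbp1* in DESeq2 without B8. Without control A2 it was -0.044 for *Clk2*, -0.051 for *Rbfox1* and -0.049 for *Ptbp1*, without B7 -0.040 for *Rbfox1*, without B8 -0.042 for *Ptbp1*, and without B9 -0.024 for *Clk2*, -0.048 for *Rbfox1*, -0.026 for *Ptbp1* and 0.054 for *Tra2a*. Over all single-mouse omissions *Clk2* ran from -0.044 to 0.12, *Rbfox1* from -0.051 to 0.070, *Ptbp1* from -0.049 to 0.080 and *Tra2a* from -0.17 to 0.054. The cause was not tested. No paired analysis was possible because no replicate number occurs in both groups of the labels. The members had at least 254 counts per library, and the groups held 3 and 4 mice. Counting error and variation between mice were not separated.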

Other observations

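Marker lists of other cell types and regions were measured in the same libraries, each as a summed level over its genes. Dividing cells and progenitors (9 genes) gave 188 to 233 CPM in controls and 204 to 227 CPM in cKO mice, and the oligodendrocyte lineage (8 genes) 381 to 437 CPM in controls and 323 to 450.2 CPM in cKO mice. Endothelial markers (7 genes) gave 137 to 211 CPM in controls and 147 to 205 CPM in cKO mice, and red blood cell genes (5) 132 to 496 CPM in controls and 57.7 to 179 CPM in cKO mice, and the control A4 held the highest value of the 7 mice. Dorsal midbrain genes (10) gave 481 to 531 CPM in controls and 493 to 621 CPM in cKO mice. Genes of cortex and hippocampus (7) gave 76.9 to 89.4 CPM in controls and 74.1 to 103 CPM in cKO mice, and cerebellar genes (6) 242 to 297 CPM in controls and 226 to 297 CPM in cKO mice. Without B8 edgeR called 2 higher and 1 lower among dividing cells and progenitors, 1 and 4 in the oligodendrocyte lineage, 3 and 1 in endothelium, 0 and 3 among red blood cell genes, 4 and 1 in dorsal midbrain, 1 and 0 in cortex and hippocampus and 0 and 1 in cerebellum (background 23.7% higher and 23.1% lower). With 7 mice edgeR called 0 genes of these 7 lists. DESeq2 called 1 gene each in the dividing cell, oligodendrocyte, dorsal midbrain and cortical lists and 0 in the other 3 (background 10.4%). Unadjusted p values under 0.05 in edgeR were found for 3 dividing cell, 1 oligodendrocyte, 2 endothelial, 0 red blood cell, 4 dorsal midbrain, 1 cortical and 0 cerebellar genes (background 30.4%).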
